A study of Drosophila melanogaster with 12 samples.

Results

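Genes of very long span were taken as the rows of the deposited expression tables whose annotated locus covered at least 60000 bases and whose mean level was at least 1 FPKM (fragments per kilobase of transcript and per 1000000 mapped fragments) over the neuroblast libraries or over the S2 libraries. Of 14210 genes in the tables, 210 spanned at least 60000 bases and 133 of these passed the level threshold. In neuroblasts 99 of them passed and in S2 cells 117, with 83 passing in both, 16 in neuroblasts alone and 34 in S2 cells alone. The other 77 long genes were under 1 FPKM in both systems. The genes were selected on span and mean FPKM, so neither is given below as a finding, and the change after *barc* depletion was no part of the choice.

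The 12 libraries held polyadenylated fly RNA, sequenced with strand kept (dUTP method), after RNA interference (RNAi) against *barc*, the fly gene for Barricade. In humans its counterpart is Tat-SF1, a cofactor of splicing. All neuroblasts came from larvae late in the last instar, reared at 29 °C and carrying dicer2, asense-Gal4, which drives in type I neuroblasts, stem cells that build the fly brain, and UAS-CD8::GFP, a membrane label used for sorting by flow cytometry. Control larvae were crossed to the empty landing site VIE-260B (2 libraries) and the others to a *barc* RNAi line (2 libraries). The S2 line, derived from embryos and resembling blood cells, was grown in Schneider's medium with 10% serum. For 7 days it received double-stranded RNA, directed in 4 control libraries at mCherry, which flies lack, and in 4 libraries at *barc*. The labels do not say that replicates were separate cultures or cohorts of larvae, so the p-values reflect only how far these libraries spread, and that spread may be technical. A KAPA kit used manually gave the neuroblast libraries and a robot with NEB reagents the S2 libraries, so levels were not tested between the systems.

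The deposited values imply between 27.1 and 48.7 M fragments (M, 1000000) in a neuroblast library, with both *barc* RNAi libraries above both controls, and between 14.6 and 28.6 M in an S2 library. *barc* itself stood at 86.4 and 94.0 FPKM in control neuroblasts and at 15.1 and 17.9 FPKM in depleted ones. The S2 controls lay between 20.9 and 23.9 FPKM and the depleted S2 libraries between 3.02 and 7.32 FPKM. Of 11 listed neuroblast markers, 1 averaged under 1 FPKM in control neuroblasts (*esg*), and the 9 of 12 listed hemocyte markers found in the tables averaged at least 1 FPKM in S2 controls.

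Most of the span of such a gene is intron, and other genes can lie whole inside those introns. Introns are removed while the polymerase is still transcribing, and some very large fly introns are taken out in successive pieces, which is called recursive splicing. Human Tat-SF1 binds the U2 snRNP, the particle that recognises the branch point of an intron, and was first described as a cofactor of transcription elongation. In flies, many very long genes encode adhesion receptors, transcription factors and cytoskeletal linkers with roles in the nervous system.

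The long genes had a median span of 89536 bases, against 2627 bases over all 8064 genes expressed in either system. Structure was read from release 6 of the fly annotation, in which 126 of the 133 were found and all 126 were protein coding. In that annotation their median longest intron was 50375 bases against 254.5 bases over expressed genes, and 125 of the 126 (99.2%) had an intron of at least 10000 bases against 8.58% of expressed genes. Long introns largely follow from the selection on span, so these values describe the long genes and are no finding. Their longest transcripts were long as well, with a median of 7490.5 bases against 2032, and the deposited tables listed a median of 5 transcripts per gene against 1. The exception without a long intron was *CG10962*, whose span was 76081 bases in the tables but 1348 bases in release 6, with a longest intron of 274 bases, so it is long in the tables alone. The tables use coordinates of an earlier build that the sources used here do not name, and coordinates below are given as the tables give them. Of the 133 genes, 31 (23.3%) lay on the X chromosome, against 17.2% of expressed genes, and 5 on scaffolds of heterochromatin.

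The longest gene was *kirre*, an immunoglobulin-type adhesion receptor of myoblast fusion, with 392408 bases on X (2634417 to 3026824) and 22 other genes inside its locus. *CG40178* spanned 215672 bases, *Ten-a*, which encodes a teneurin adhesion receptor, 186373 bases, and *pum*, which encodes the translational repressor Pumilio, 170118 bases. Just inside the span threshold lay *app* (60552 bases), *sdt* (60893) and *CG3655* (60999), and just outside it *CG34347* (59603), *psq* (59377) and *CG7337* (59296). Just inside the level threshold, *CG32206* averaged 1.04 FPKM in S2 cells, *Pde1c* 1.21 FPKM in neuroblasts and *Mur2B* 1.37 FPKM in S2 cells. Just outside it, *nAcRalpha-80B* averaged 0.948, *NetB* 0.903 and *CG3777* 0.856 FPKM in S2 cells. In 54 of the 133 loci no other gene lay inside. For 11 of the 126 matched genes at least 10% of the exon bases overlapped exons of another gene, so their values are uncertain. In 8 of the 11 the overlap on the same strand alone reached 10%, which no strand setting resolves. For the others the strand setting of the authors' counting matters, and it is not given in the sources used here. Of the 11, those described below are *sif* (71.9% of exon bases), *CG10962* (44.0%), *CG34104* (37.5%), *CG1677* (14.0%) and *Ank2* (12.5%). For *sif* and *CG1677* all of the overlap was on the same strand.

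In neuroblasts 22 long genes rose and 10 fell after *barc* RNAi among the 97 that were tested. Those that rose include the microtubule and actin linker *shot*, the neuronal cadherin *CadN*, the splicing regulator *mbl* and the transcription factor *fru*, and those that fell include the adhesion protein *Fas3*, the Rac exchange factor *sif* and the T-box factor *bi*. *CadN* passed the level threshold through the RNAi group alone. Calls are limma results on log2(FPKM + 1) with an adjusted p under 0.05 over all 6732 genes tested, and changes are *barc* RNAi minus control on that scale, which understates the change of low genes. Over all genes tested, 19.1% were called higher and 23.8% lower (42.9% in either direction), and of the long genes 22.7% were called higher and 10.3% lower (33% in either direction). The median change was 0.076 over the long genes and −0.015 over all genes, and 62 of the 97 (63.9%) were above 0 against 47.5% of all genes. In 46 of the 97 (47.4%) both RNAi libraries lay above both controls and in 28 (28.9%) below, against 34.8% and 39.9% of all genes. The groups did not overlap in any of the 32 called genes, but the same libraries made the calls, so this is no separate support. Changes were small on the scale of FPKM + 1, where no called long gene reached 2-fold, against 2.72% of all genes called and past 2-fold. *Fas3*, which was called, had a log2 ratio of −1.06 in the authors' deposited table, past 2-fold. After rescaling to TPM (levels scaled so that each library sums to 1000000), which raised the median of all genes by 0.095, the split was 34 higher and 9 lower (35.1% and 9.28%), against 30.7% and 15.5% of all genes, whose own lean turned to higher. One limma fit over all 4 groups, which shares 1 estimate of the spread, called 2 long genes higher and 2 lower, against 2.32% and 2.98% of all genes. Without control replicate 1, 12 long genes were higher and 8 lower, against 11.2% and 15.4% of all genes, and 15 of the 32 calls were lost when at least 1 of the libraries was left out.

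**Figure D1:**
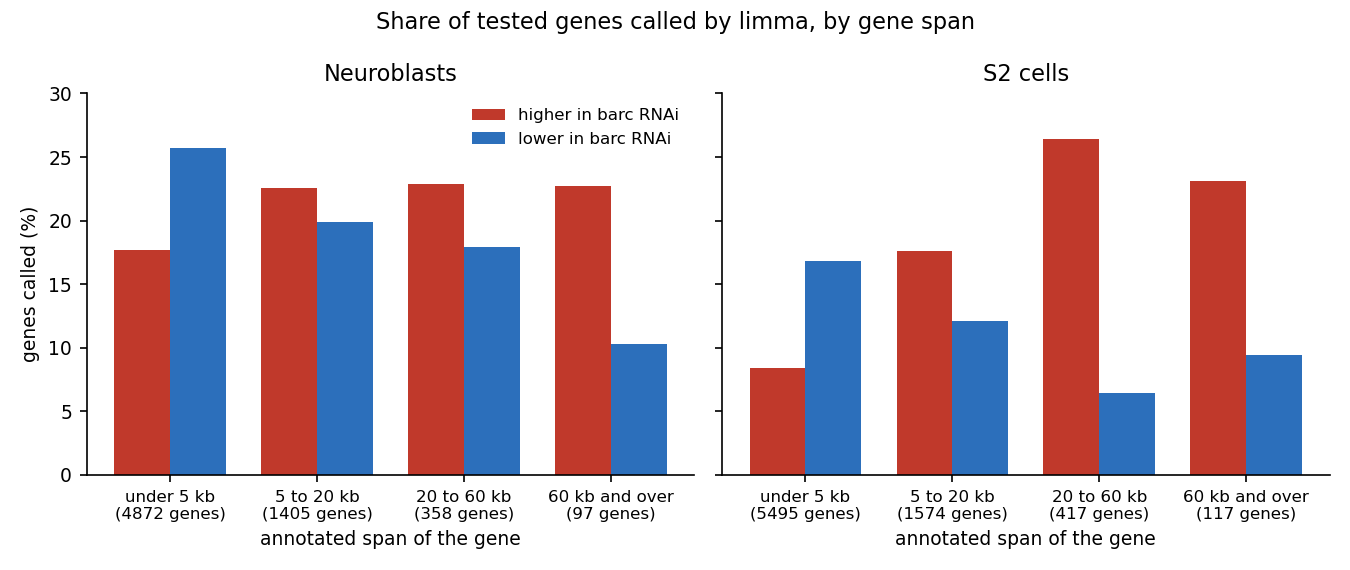
Percent of tested genes called higher (red) or lower (blue) after *barc* RNAi by limma, by annotated span of the gene, in neuroblasts (left) and S2 cells (right). Genes of 60 kb and over were called higher in 22.7% and 23.1% of cases and lower in 10.3% and 9.4%, whereas genes under 5 kb were called lower more often than higher in both systems.

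The largest rise in neuroblasts was that of *CG6490*, a gene on none of the functional lists used here (3R, 22295800 to 22360939). Its level was 5.10 and 5.38 FPKM in controls against 9.50 and 8.36 FPKM after RNAi. Both RNAi libraries lay above both controls, and the log2 change was 0.67 ± 0.092 (SE, n = 2 against 2, limma adjusted p = 0.000679). *shot*, the spectraplakin that links microtubules to actin, read 23.8 and 23.9 FPKM in controls against 36.7 and 31.1 FPKM after RNAi. Its groups were also apart, and its log2 change was 0.48 ± 0.079 (limma adjusted p = 0.00164). *pyd*, which encodes the fly homologue of the tight junction scaffold ZO-1, went from 45.1 and 45.0 FPKM to 65.5 and 60.4 FPKM, a log2 change of 0.47 ± 0.059 (limma adjusted p = 0.000427). These 3 calls held with each library left out in turn.

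Among regulators of RNA and of transcription, *mbl* and *fru* rose most. *mbl*, which encodes the splicing regulator Muscleblind, stood at 24.3 and 25.7 FPKM in control neuroblasts and at 37.5 and 31.4 FPKM after RNAi, a log2 change of 0.44 ± 0.085 (limma adjusted p = 0.00357). *fru*, which encodes the BTB zinc finger factor Fruitless of the sex determination pathway, stood at 21.1 and 22.6 FPKM and at 30.5 and 29.1 FPKM, a log2 change of 0.43 ± 0.064 (limma adjusted p = 0.000998). For both genes the groups did not overlap. *A2bp1*, the fly member of the Rbfox family of splicing regulators, went from 18.9 and 20.2 FPKM to 23.5 and 24.8 FPKM with a log2 change of 0.29 (limma adjusted p = 0.00743), a call lost without control replicate 1 (adjusted p = 0.0699). Of the 8 tested long genes on the RNA-binding list 2 rose and none fell, with a median of 0.089, and of the 16 on the transcription factor list 2 rose (*fru* and *sima*) and 1 fell (*bi*), with a median of 0.058. The other RNA-binding genes of the list tested in neuroblasts, all of shorter span, gave 9 higher and 10 lower of 41.

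Low in the controls were 3 giant cytoskeletal or adhesion genes. *CadN* read 0.926 and 1.01 FPKM in controls against 2.10 and 1.75 FPKM after RNAi. *Msp-300*, a nesprin that anchors nuclei, read 1.41 and 1.48 FPKM and then 2.92 and 2.23 FPKM, and *Ank2*, the neuronal ankyrin, 1.04 and 1.11 FPKM and then 2.00 and 1.99 FPKM. Their log2 changes were 0.57, 0.54 and 0.53 with limma adjusted p of 0.0149, 0.0161 and 0.0154. All 3 were apart between the groups, and all 3 calls were lost without control replicate 1 (adjusted p of 0.0955, 0.0963 and 0.0974). *CadN* averaged under 1 FPKM in the controls, and 3 tested long genes in neuroblasts passed the level threshold through 1 group alone (*CadN*, *Fur1* and *CG40178*). Of the 5 tested long genes on the cytoskeleton and polarity list 3 rose (*shot*, *Msp-300* and *klar*) and none fell, with a median of 0.35. Of the 52 other tested genes of that list 10 rose and 9 fell, with a median of 0.0030.

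The largest fall was that of *Fas3*, the homophilic adhesion protein Fasciclin 3 of septate junctions (2L, 18320101 to 18393441). Control neuroblasts read 7.59 and 8.50 FPKM and depleted ones 3.16 and 4.27 FPKM, with no overlap, a log2 change of −0.95 ± 0.13 and a limma adjusted p of 0.000572. *sif*, which encodes the Rac exchange factor Still life, went from 6.04 and 6.99 FPKM to 3.26 and 3.53 FPKM (log2 change −0.77, limma adjusted p = 0.000653). *bi*, also known as optomotor-blind, went from 7.21 and 8.05 FPKM to 4.69 and 5.27 FPKM (log2 change −0.53, limma adjusted p = 0.00288). *CG1677* was the most abundant of the genes that fell, going from 130.3 and 129 FPKM to 91.7 and 103 FPKM. The heterochromatic genes *Parp*, which encodes poly(ADP-ribose) polymerase, and *Dbp80*, which encodes a DEAD-box helicase, fell with log2 changes of −0.40 and −0.42. *kek5*, *CG34104*, *Gprk1* and *Eip63E* completed the 10 that fell, and the calls of the latter 3 were lost without 1 of the controls.

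Of the 5 long genes at the highest levels in neuroblasts, *CG1677* fell and the other 4 were not called. *lola*, a BTB factor with many isoforms, read 391 and 388 FPKM in control libraries and then 365 and 369 FPKM (log2 change −0.086, limma adjusted p = 0.173). *mub* and *msi*, which encode RNA-binding proteins, averaged 139 ± 2.84 and 87.8 ± 1.93 FPKM in controls against 136 ± 5.57 and 94.4 ± 0.049 FPKM after RNAi (SD, n = 2 each). *pros*, which encodes the homeodomain factor Prospero that neuroblasts hand to their daughters, averaged 88.9 ± 2.59 and 85.5 ± 1.19 FPKM.

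In the authors' deposited table for neuroblasts, 29 of the 97 tested long genes were higher and 18 lower at their adjusted p under 0.05, against 20% and 20.8% of all genes tested here. Of the 32 limma calls, 30 were also made in the authors' deposited table, all in the same direction. Both rest on the same libraries, so the match is no independent support. Below the level threshold for the neuroblast fit, *dp*, which encodes the giant extracellular matrix protein Dumpy, stood out, and it is named here after its values were seen. It read 0.0989 and 0.0717 FPKM in control neuroblasts and 2.17 and 1.33 FPKM after RNAi, and the authors' deposited table gave it a log2 ratio of 4.28 (adjusted p = 2.41e-297). *Mur2B* read 0.361 and 0.369 FPKM and then 1.61 and 1.28 FPKM, with a log2 ratio of 2.14 in the authors' deposited table.

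In these sorted cells the summed FPKM of 11 neuroblast markers was 2157 and 2205 in the controls and 2002 and 2003 after RNAi. Of these 11, 8 had the lower mean after RNAi and 3 the higher. The summed FPKM of 14 neuron markers was 38.8 and 41.5 in the controls and 62.6 and 70.8 after RNAi, with 9 higher in mean and 5 lower. Of the 14, 11 averaged under 1 FPKM in both groups, and *unc-13*, *elav* and *fne* made up most of the sum. The sum of 11 glia markers fell, from 218 and 223 to 146 and 158, through *Eaat1* (means of 76.0 and 38.9 FPKM) and *nrv2* (124 and 88.6 FPKM). Of the 11 glia markers 5 had the higher mean after RNAi and 5 the lower, and 8 averaged under 1 FPKM in both groups. In bulk samples fewer cells of a type and less RNA per cell cannot be told apart, and the part of these markers in the changes of long genes was not tested. The part of the higher depth of both *barc* RNAi libraries was not tested either.

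In S2 cells 27 long genes rose and 11 fell after *barc* RNAi among the 117 tested. The risers include the titin gene *sls*, the endocytic receptor *mgl*, the polarity genes *sdt* and *scrib*, and 5 adhesion genes, whereas *l(3)82Fd*, *kirre* and the flotillin *Flo-2* fell. Among the 27 that rose, *sls* and *pk* passed the level threshold through the RNAi group alone. Over all 7603 genes tested, 11.5% were called higher and 15.2% lower (26.7% in either direction), and of the long genes 23.1% were called higher and 9.4% lower (32.5%). Their median log2 change was 0.28 against −0.062 over all genes, and 83 of 117 (70.9%) were above 0 against 44.4%. Of the long genes 15 (12.8%) were called with at least a 2-fold change, against 9.21% of all genes. Rescaling to TPM raised the median of all genes by 0.12 and gave 27 higher and 8 lower, against 12.3% and 10.7% of all genes.

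The S2 counts depended on the libraries. Replicates 1 and 2 of both groups carry a first number 1 in the descriptions and replicates 3 and 4 a first number 2, whose meaning is not given. Within replicates 1 and 2 alone, 62 long genes were higher and 27 lower (53% and 23.1%) with a median of 0.30, against 27.4% and 44.6% of all genes. Genes of 20 to 60 kb had 54.2% and 24.7% there. Within replicates 3 and 4 alone 16 were higher and 3 lower (13.7% and 2.56%) with a median of 0.20, against 6.08% and 6.21% of all genes. With the replicate number as a block, 42 rose and 13 fell (35.9% and 11.1%, against 17.1% and 19.4% of all genes), including all 38 called without it. Control replicate 4 stood apart from the other controls. The long genes made up 0.408%, 0.371% and 0.301% of the FPKM sum in S2 controls 1 to 3 and 0.490% in control 4, against 0.572%, 0.579%, 0.430% and 0.488% after RNAi. Without control 4, 42 long genes were higher and 9 lower, against 13.8% and 19% of all genes, and the median was 0.47. Without control 1, control 2, control 3, RNAi replicate 1 or RNAi replicate 2, between 22 and 24 were called. No share of all genes is given for these fits, so those counts are no result about long genes. Of the 38 calls, 17 were lost when at least 1 library was left out. All 38 had the same sign in both pairs of replicates, and in 34 of the 38 the groups did not overlap, the exceptions being *CG43462*, *dp*, *pyd* and *Nipped-A*. The same libraries made the calls, so neither count is separate support. Among all 117 tested, called or not, 97 had the same sign in both pairs. The share of all genes with the same sign was not computed, so the 97 are no result about long genes. Over the 117 tested, every RNAi library lay above every control in 27 (23.1%) and below in 13 (11.1%), against 14.1% and 18% of all genes.

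**Figure D2:**
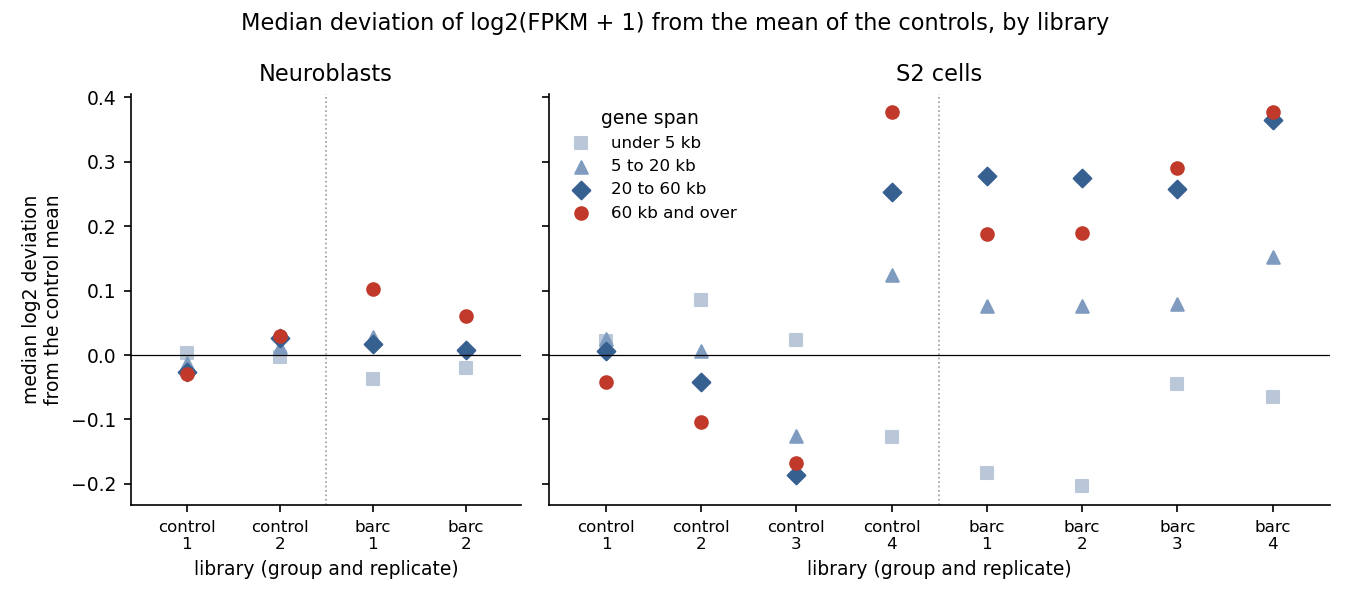
Median deviation of log2(FPKM + 1) from the mean of the controls over tested genes of 4 span classes, for each neuroblast (left) and S2 (right) library, with a dotted line between controls and *barc* RNAi. The median of genes of 60 kb and over was between 0.19 and 0.38 in the S2 *barc* RNAi libraries and 0.38 in S2 control 4, against −0.17 to −0.042 in the other S2 controls.

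The largest rise in S2 cells was that of *sls*, which encodes the titin of fly muscle (3L, 2040179 to 2115611). It read 0.650, 0.464, 0.342 and 1.15 FPKM in controls against 11.2, 10.4, 4.01 and 4.41 FPKM after RNAi. Every RNAi library was above every control, and RNAi replicates 1 and 2 were higher than 3 and 4. The log2 change was 2.27 ± 0.33 (limma adjusted p = 0.00277), with 2.92 within replicates 1 and 2 and 1.62 within 3 and 4. Its mean was under 1 FPKM in the controls, as was that of *pk*, and *CG32206* was under 1 FPKM after RNAi, so these 3 passed the level threshold through 1 group. The 12 muscle and fat body markers, which include *sls*, summed to between 1.06 and 2.91 FPKM in the controls and between 6.25 and 12.9 after RNAi. Most of the later sum was *sls* itself (a mean of 7.50 FPKM), and the means of the other 11 summed to 1.15 and 1.98 FPKM. *Mhc*, *up* and *Mlc1* averaged under 0.1 FPKM in both groups, *Prm* 0.214 and 0.434 FPKM and *Act57B* 0.188 and 0.360 FPKM.

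Among the adhesion genes *Fas3* rose most. Its 4 controls read 1.11, 1.20, 1.27 and 1.57 FPKM and its 4 RNAi libraries 12.6, 13, 4.92 and 4.99 FPKM, again without overlap and again with replicates 1 and 2 highest. The log2 change was 1.99 ± 0.32 (limma adjusted p = 0.00387), with 2.68 and 1.30 in the replicate pairs. *Sema-1a*, the transmembrane semaphorin of axon guidance, read 1.90, 1.63, 0.326 and 0.785 FPKM and then 13.7, 13, 2.50 and 3.37 FPKM (log2 change 1.86, limma adjusted p = 0.0285). Its call was lost without control replicate 3 (adjusted p = 0.0806), and with the replicate block its adjusted p was 0.00280. *sdk* and *Fas2*, both immunoglobulin-type adhesion genes, rose from 3.75 ± 1.13 to 9.22 ± 1.67 FPKM and from 2.37 ± 0.821 to 5.75 ± 1.12 FPKM (SD, n = 4 each, limma adjusted p of 0.00514 and 0.0114). With *kek5*, 5 of the 16 tested long adhesion genes rose and 1, *kirre*, fell, with a median of 0.54 against 0.49 over the 43 other adhesion genes tested, of which 13 rose and 5 fell.

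Of the 7 long cytoskeleton and polarity genes 4 rose and none fell, with a median of 1.13, and of the 59 other genes of the list 12 rose and 3 fell, with a median of 0.24. *shot* read 13.9, 11.6, 10.3 and 27.4 FPKM in controls against 49.5, 51.8, 37.3 and 43.4 FPKM after RNAi. The highest control was control 4, and no library of one group reached the other. Its log2 change was 1.56 ± 0.27 (limma adjusted p = 0.00557), with 1.91 and 1.20 in the replicate pairs. *sdt*, which encodes the Stardust scaffold of the Crumbs complex, read 2.34, 2.63, 7.32 and 6.99 FPKM and then 15.9, 15.9, 14.9 and 15.7 FPKM. Its controls differed between the pairs while its RNAi libraries did not, and the log2 change was 1.64 ± 0.31 (limma adjusted p = 0.00735). *scrib*, which encodes the Scribble scaffold of the basolateral membrane, rose with a log2 change of 0.68 (limma adjusted p = 0.0188), a call lost without RNAi replicate 2 (adjusted p = 0.0564).

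Several long genes outside these lists rose as well. *mgl*, which encodes the endocytic receptor Megalin, read 38.0, 34.5, 22.8 and 42.2 FPKM in controls against 109.6, 116, 88.1 and 95.4 FPKM after RNAi. All RNAi libraries were above all controls, and the log2 change was 1.57 ± 0.19 (limma adjusted p = 0.00135), with 1.61 and 1.53 in the pairs. *sick* (sickie) rose from between 0.960 and 1.56 FPKM to between 5.65 and 8.05 FPKM (log2 change 1.84 ± 0.16, limma adjusted p = 0.000466). *CG42669*, on none of the functional lists used here, rose from 20.6 ± 4.72 to 54.4 ± 11.4 FPKM (SD, n = 4 each, log2 change 1.37, limma adjusted p = 0.00326). *Nipped-A*, the fly TRRAP, read 16.3, 10.1, 6.43 and 30.4 FPKM and then 33.9, 29.5, 34.4 and 36.7 FPKM, so that control 4 lay above 1 RNAi library. Its limma adjusted p was 0.0406 and became 0.108 without control replicate 2. *dp* read 5.08, 3.19, 2.47 and 9.36 FPKM and then 7.67, 8.43, 13.5 and 17.5 FPKM, and its limma adjusted p of 0.0492 became 0.126 without control replicate 2.

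Among long transcription factor genes 4 of 13 tested in S2 cells rose and none fell, with a median of 0.28 against 0.30 over the 79 other listed factors, of which 20 rose and 3 fell. *fru* read 21.9, 22.2, 18.8 and 28.5 FPKM in controls against 40.4, 36.4, 34 and 42.6 FPKM after RNAi. The groups were apart, and the log2 change was 0.73 ± 0.14 (limma adjusted p = 0.00802), with 0.77 and 0.69 in the pairs. *EcR*, the ecdysone receptor, and *br*, an ecdysone response factor, rose with log2 changes of 0.70 and 0.66 (limma adjusted p of 0.0164 and 0.0252). *lola* rose from 153 ± 26.5 to 243 ± 47.2 FPKM (log2 change 0.66, limma adjusted p = 0.0285). The calls of *EcR* and *br* were lost without control replicate 2 (adjusted p of 0.0521 and 0.0717) and that of *lola* without RNAi replicate 2 (0.0806). *bun*, which encodes a TSC22-family factor, was the most abundant factor that was not called, with 215 ± 59.9 and 147 ± 24.5 FPKM (limma adjusted p = 0.0893), and with the replicate block its adjusted p was 0.0153.

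The most abundant long gene in S2 cells, *CG32521*, read 243, 278, 223 and 223 FPKM in controls against 562, 607, 281 and 271 FPKM after RNAi, where replicates 1 and 2 stood well above and replicate 4 fell below the highest control. It was not called (log2 change 0.73, limma adjusted p = 0.0805), whereas the replicate block gave an adjusted p of 0.0258. Of the 9 long RNA-binding genes 1, *mbl*, rose without the block, from 21.4 ± 6.37 to 34.2 ± 2.19 FPKM (SD, n = 4 each, limma adjusted p = 0.0252, and 0.0722 without control replicate 1). With the replicate block, *heph* and *shep* were called as well (log2 changes of 0.64 and 0.63, limma adjusted p of 0.0175 and 0.0370). The median of these 9 was 0.41 against 0.0091 over 42 other RNA-binding genes, of which 8 rose and 4 fell. *pum* averaged 51.8 ± 9.37 and 56.2 ± 9.37 FPKM (log2 change 0.12, limma adjusted p = 0.612). Of 37 genes listed for transcription elongation, *lilli*, the fly AFF4 scaffold of the super elongation complex, was the 1 long gene, and it was not called. Of the 35 other tested elongation genes 1 rose and 2 fell in S2 cells, and 3 rose and 9 fell in neuroblasts.

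The largest fall in S2 cells was that of *l(3)82Fd*, also known as mustard (3R, 1096943 to 1176165). It read 130.5, 135, 97.3 and 116 FPKM in controls against 38.2, 39.4, 47.4 and 49.1 FPKM after RNAi. The groups were far apart, and the log2 change was −1.43 ± 0.14 (limma adjusted p = 0.000598), with −1.75 and −1.12 in the pairs. *kirre* fell from 8.37, 8.38, 9.14 and 11.9 FPKM to 4.16, 3.99, 4.76 and 5.02 FPKM (log2 change −0.92, limma adjusted p = 0.00374). *Flo-2* fell from 31.5 ± 2.56 to 16.8 ± 4.89 FPKM (limma adjusted p = 0.0114) and *dnc*, the cAMP phosphodiesterase gene dunce, from 19.8 ± 2.81 to 11.5 ± 0.788 FPKM (limma adjusted p = 0.00471). *CG10962* fell from 88.9 ± 19.3 to 46.6 ± 0.868 FPKM and *CG4587* from 8.01 ± 2.21 to 3.16 ± 1.25 FPKM. *Hs6st*, which encodes a heparan sulfate sulfotransferase, fell with a log2 change of −0.59 (limma adjusted p = 0.0410), a call lost without RNAi replicate 2 (adjusted p = 0.110). Of the 5 genes on heterochromatin scaffolds, *CG40263*, *CG40178* and *Dbp80* fell in S2 cells, with log2 changes of −0.68, −0.49 and −0.64.

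**Figure D3:**
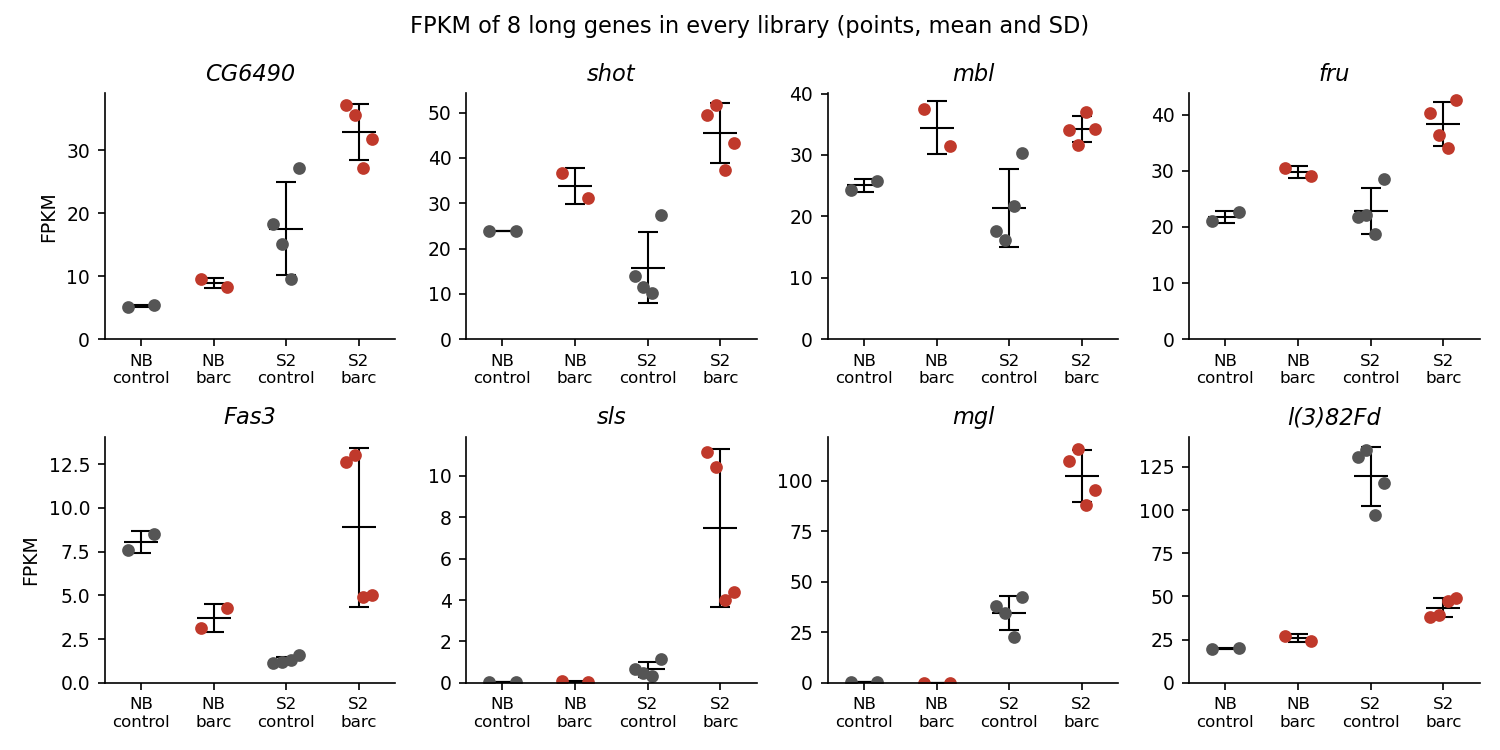
FPKM of 8 long genes in each library of the 4 groups (grey, control; red, *barc* RNAi), with the mean and SD (n = 2 in neuroblasts, NB, and n = 4 in S2 cells) and an axis of its own for each gene. *CG6490*, *shot*, *mbl* and *fru* were higher after RNAi in both systems, *Fas3* and *l(3)82Fd* moved in opposite directions, and *sls* and *mgl* were under 1 FPKM in neuroblasts.

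In the authors' deposited table for S2 cells, 45 of the 117 tested long genes were higher and 7 lower, against 12% and 8.62% of all genes tested here. Of the 38 limma calls, 33 were also made in the authors' deposited table, all in the same direction. Here too both rest on the same libraries, so the match is no independent support. The summed FPKM of the 14 neuron markers in S2 cells was between 16.4 and 36.2 in the controls and between 59.6 and 106 after RNAi, most of it *unc-13*. That of 9 hemocyte markers was between 1214 and 1415 and then between 764 and 922, a drop carried by the collagen gene *Cg25C*, with means of 863 and 328 FPKM. The means of the other 8 summed to 444 in the controls and 540 after RNAi, and 6 of the 9 had the higher mean after RNAi. The part of these shifts in the changes of long genes was not tested.

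Both systems could be tested for 81 long genes, of which 12 were called in both and 42 in neither. Over all genes tested in each fit, 42.9% were called in neuroblasts and 26.7% in S2 cells. The share of all genes called in both was not computed, so the 12 are no result about long genes. *mbl*, *fru*, *pyd*, *CG42238*, *shot*, *pk*, *CG6490* and *rdx* were higher in both, and *Dbp80* was lower in both. Of these, *pk* passed the S2 level threshold through the RNAi group alone, in which it is high. *rdx*, which encodes a Cullin 3 adaptor that targets the Hedgehog effector Ci, rose from 21.0 ± 1.94 to 26.3 ± 0.343 FPKM in neuroblasts (SD, n = 2 each) and from 24.6 ± 7.46 to 39.5 ± 2.80 FPKM in S2 cells (n = 4 each). Its calls were lost without neuroblast control replicate 1 (adjusted p = 0.0769) and without S2 control replicate 2 (adjusted p = 0.0683). *CG6490* read 18.3, 15.1, 9.6 and 27.1 FPKM in S2 controls and 37.2, 35.6, 27.2 and 31.8 FPKM after RNAi, so that control 4 reached almost to the lowest RNAi library. Its S2 log2 change was 0.95 (limma adjusted p = 0.0306, and 0.0807 without control replicate 2). *Dbp80* fell from 46.2 ± 6.02 to 34.1 ± 0.535 FPKM in neuroblasts and from 39.7 ± 6.16 to 25.1 ± 3.07 FPKM in S2 cells (log2 changes −0.42 and −0.64, limma adjusted p of 0.00410 and 0.0131).

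The difference between the systems, tested as an interaction in limma, was called for 4 of the 81 (4.94%, against 3.6% of 6298 genes). *Fas3* fell in neuroblasts and rose in S2 cells, a difference of −2.94 ± 0.48 on the log2 scale (limma adjusted p = 0.00824), which was not called without neuroblast RNAi replicate 1 (adjusted p = 0.0696). *l(3)82Fd* rose from 19.7 and 19.9 FPKM to 27.3 and 24.1 FPKM in neuroblasts and fell in S2 cells, a difference of 1.79 ± 0.21 (limma adjusted p = 0.00203) that held with each library left out. *kek5*, a leucine-rich transmembrane gene of the Kekkon family, fell from 16.5 and 17.8 FPKM to 12.5 and 12.9 FPKM in neuroblasts. In S2 cells it rose from between 1.25 and 1.54 FPKM to between 2.21 and 2.93 FPKM (limma adjusted p = 0.0271, and 0.0837 without RNAi replicate 2), and the difference was −0.98 ± 0.18 (limma adjusted p = 0.0149, and 0.123 without neuroblast control replicate 2). *CG40263* was not called by limma in neuroblasts and fell in S2 cells, a difference of 0.99 ± 0.22 (limma adjusted p = 0.0354, and 0.20 without neuroblast RNAi replicate 1). In the authors' deposited table, however, *CG40263* was higher in neuroblasts, with a log2 ratio of 1.14 (adjusted p = 7.46e-06). The number of differences called was 1 without neuroblast control replicate 2 or neuroblast RNAi replicate 1, 2 without either of the other two neuroblast libraries and 13 without S2 control replicate 4. With no share of all genes beside them, these counts are no result about long genes. Over the 81 genes the median difference was −0.25 against 0.054 over all genes, and 26 of the 81 (32.1%) were above 0 against 55.6%.

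**Figure D4:**
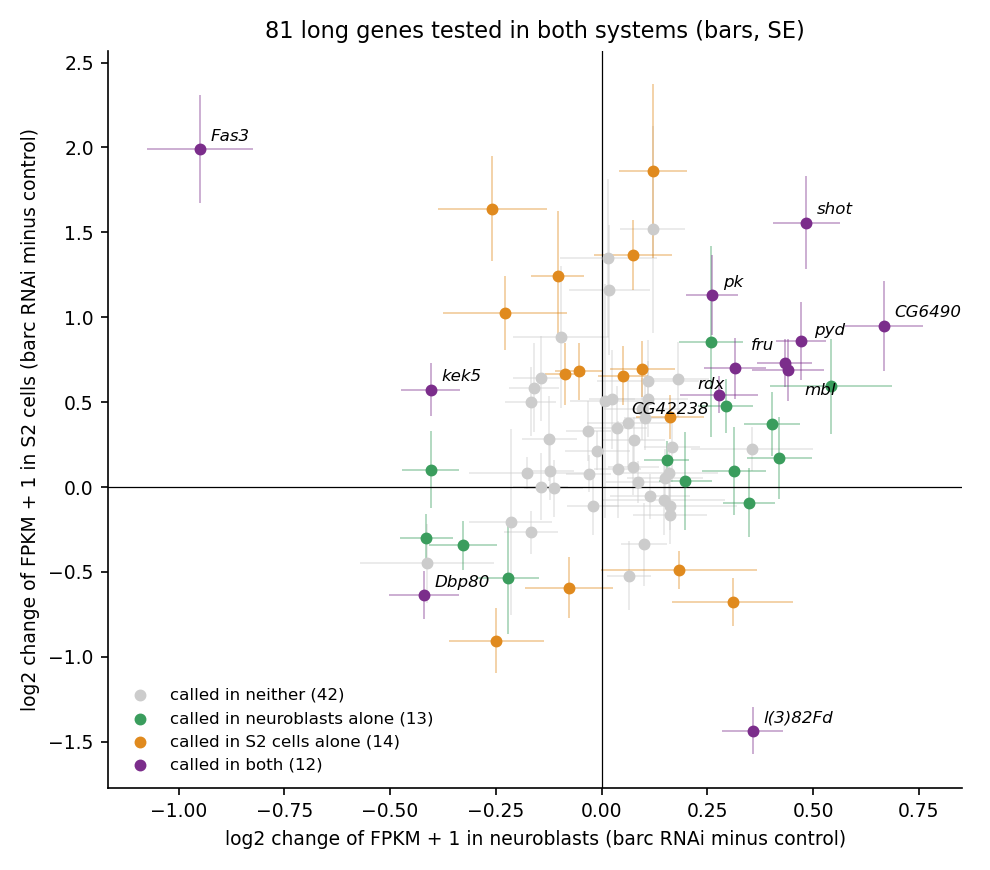
Log2 change of FPKM + 1 (*barc* RNAi minus control) in neuroblasts (horizontal axis) and S2 cells (vertical axis) for the 81 long genes tested in both, with SE bars and names for the 12 called in both. Of those 12, 8 lie at upper right, *Dbp80* at lower left, *Fas3* and *kek5* at upper left and *l(3)82Fd* at lower right, and S2 changes covered a wider range than neuroblast changes.

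Beside genes under 5 kb, the calls of the long genes leaned toward higher, as did those of genes of 5 to 60 kb. In neuroblasts 17.7% of genes under 5 kb were called higher and 25.7% lower, 22.6% and 19.9% of genes of 5 to 20 kb, and 22.9% and 17.9% of genes of 20 to 60 kb, against 22.7% and 10.3% of the long genes. In S2 cells the shares were 8.41% and 16.8%, 17.6% and 12.1%, and 26.4% and 6.47%, against 23.1% and 9.4%. The S2 medians by rising span were −0.12, 0.091, 0.31 and 0.28, so the long genes lay below those of 20 to 60 kb. The authors' deposited table gave S2 median log2 ratios of −0.097, 0.13, 0.40 and 0.37 for the same classes. In neuroblasts the authors' deposited table called 29.9% of the long genes higher and 18.6% lower, close to the 30.3% and 18.8% of genes of 20 to 60 kb, so the smaller share of lower calls among long genes in the limma fit was not seen there.

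The same comparison was made within bands of mean FPKM, as a description with no test. In S2 cells the median change of long genes was 0.51 at 1 to 5 FPKM (27 genes), 0.30 at 5 to 20 FPKM (36 genes) and 0.17 at 20 FPKM and over (54 genes). Genes under 5 kb had medians of 0.095, −0.13 and −0.15 in these bands. In neuroblasts the long genes had medians of 0.15 (19 genes), 0.10 (38 genes) and 0.044 (40 genes), and genes under 5 kb had −0.014, 0.0037 and −0.043. In every band of both systems the median of the long genes was above that of genes under 5 kb. In S2 cells genes of 5 to 20 kb had medians of 0.46, 0.11 and 0.043 and genes of 20 to 60 kb 0.34, 0.26 and 0.34, so that at 20 FPKM and over the long genes lay below those of 20 to 60 kb. In neuroblasts the medians of genes of 5 to 20 kb were −0.022, 0.058 and 0.00090 and those of genes of 20 to 60 kb −0.10, 0.024 and 0.034.

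Transcript length moved with the change as well. Over all genes tested in S2 cells, the median change was −0.17 where the longest transcript was under 2 kb, −0.035 at 2 to 4 kb, 0.22 at 4 to 8 kb and 0.44 at 8 kb and over. For the long genes it was 0.078 at 2 to 4 kb (10 genes), 0.28 at 4 to 8 kb (46 genes) and 0.39 at 8 kb and over (50 genes). In neuroblasts the medians over all genes were −0.059, 0.0030, 0.036 and 0.10, and for the long genes −0.029 (10 genes), 0.11 (42 genes) and 0.081 (38 genes) in the upper 3 bands. At 8 kb and over, the medians of long genes were thus 0.39 against 0.44 over all genes in S2 cells and 0.081 against 0.10 in neuroblasts. Few long genes had a transcript under 2 kb (2 tested in neuroblasts, 4 in S2 cells), and their medians were below 0. Span and transcript length were not separated by a test.

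**Figure D5:**
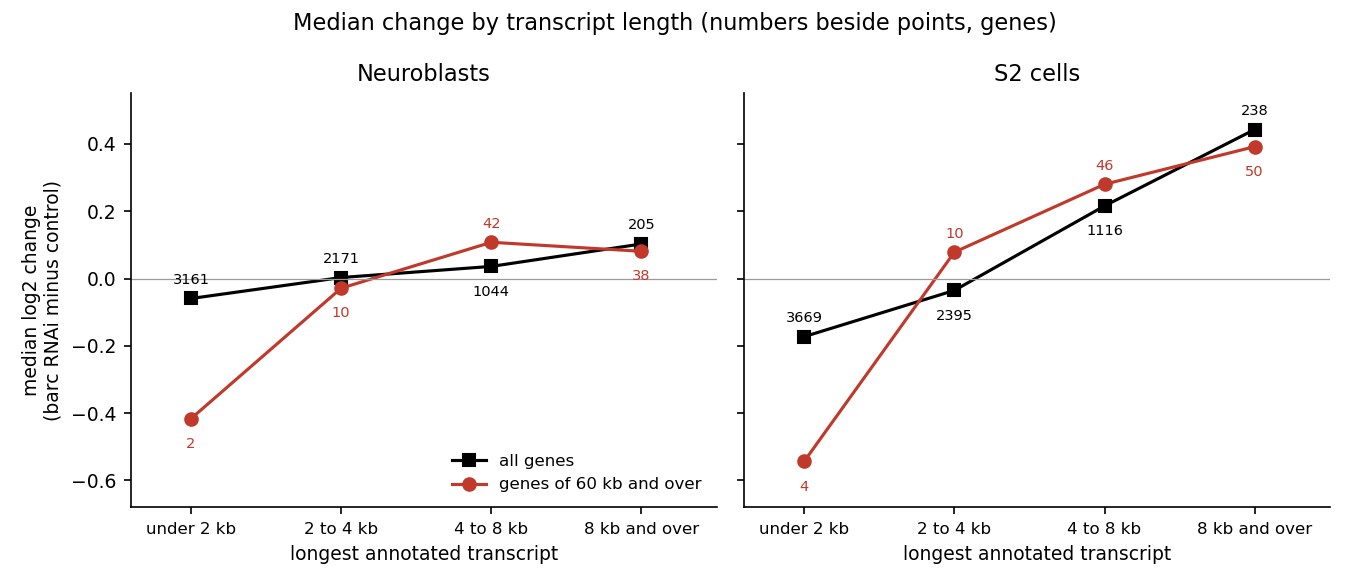
Median log2 change (*barc* RNAi minus control) by length of the longest annotated transcript for all tested genes (black squares) and for tested genes of 60 kb and over (red circles), with the number of genes beside each point, in neuroblasts (left) and S2 cells (right). Medians rose with transcript length in both sets in S2 cells, from −0.17 to 0.44 over all genes, and the points of long genes under 2 kb rest on 2 and 4 genes.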

How the data were processed

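The per-library values are FPKM, deposited by the authors in Cufflinks format with a confidence interval for each of 14210 genes. The authors' 2 deposited comparison tables, in DESeq format, give per gene the mean normalised signal of either group, the ratio (fold change) of those means, its log2 and a p-value. Every sentence that uses them names the authors' deposited table. The submitters' processing notes list HTSeq, DESeq, Cufflinks 1.3.0, TopHat 1.4.1 and BWA 0.6.1 without saying what each did. Not given in the sources used here are the genome build, the annotation and the counting strand. No columns of other samples were left unused (0 columns).

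Depth was taken as the sum of the fragments implied by the width of each deposited confidence interval. Each system had its own fit with limma 3.58.1 (R 4.3.3), with trend, on log2(FPKM + 1). It took genes averaging at least 1 FPKM in that system that had a complete estimate in each of its libraries. This left out 47 genes in neuroblasts, the long genes *lilli* and *sdk* among them, and 41 in S2 cells. Tests were two-sided with Benjamini-Hochberg adjustment over all genes of the fit, and the difference between systems was an interaction in 1 fit over all groups. On simulated data 100 genes changed 2-fold and 100 by a log2 change of 2, on the scale of FPKM + 1. Of those changed 2-fold, 93.0% were recovered among 6732 genes in the neuroblast fit. The S2 fit recovered 72.0% among 7603 and the interaction 48.0% among 6298. False calls numbered 8, 11 and 3. Noise was drawn separately for each library, so deviations shared between S2 libraries were not simulated. Transcript and intron lengths came from the Ensembl 115 annotation of release 6, matched by identifier for 110 long genes and by symbol for 16. Genes of other spans were set beside the long genes in classes of span, of mean FPKM and of transcript length, with no test.

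The long genes and the 12 functional and marker lists were chosen with earlier results of these data known, so no pattern here is independent of those results. Genes were named by a rule. In each system it took the 10 largest rises, the 10 largest falls and the 5 highest levels, then 10 genes called in both systems, the 10 longest spans, up to 4 called genes per list and the genes nearest the thresholds. Same-numbered S2 libraries deviated from their group means together (correlations of 0.451 to 0.588 over all 4 numbers), so the replicate block was used, a reading that comes from the data. Libraries of other numbers within replicates 1 and 2 or within 3 and 4 correlated as much (0.326 to 0.618), and across those sets at −0.606 to −0.371, so the values separate the sets rather than the single numbers. Alternatives were other pseudocounts, filters, scalings, span thresholds, blocks and libraries left out. A search of promoter sequence was not run.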

Additional observations from a re-analysis of the deposited data

Results flagged for a closer look

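In groups of 4 libraries, a library was singled out when its gap to the nearest of the others took up more of the range of the group than Dixon's 95% critical value. Of 100 such groups, 6 met this, where chance gives about 1 in 20. Of these 5 were S2 control replicate 4, in which *rdx* read 35.8 FPKM against 20.8 to 20.9 in the other controls, *EcR* 24.4 against 14.8 to 16, *A2bp1* 21.3 against 13.4 to 13.7, *sdk* 5.43 against 3.09 to 3.35 and *Mur2B* 2.88 against 1.03 to 1.10. The other was *msi* in S2 *barc* RNAi replicate 1, with 29.5 FPKM against 26.3 to 26.7.

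For 4 long genes the change in neuroblasts differed from that in S2 cells by an interaction test in limma. The difference was −2.94 for *Fas3* (−0.95 and 1.99 in the 2 systems), 1.79 for *l(3)82Fd* (0.36 and −1.43), −0.98 for *kek5* (−0.40 and 0.57) and 0.99 for *CG40263* (0.31 and −0.68), all on the log2 scale.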

How the results depend on the processing

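With 2 neuroblast libraries a group and S2 libraries that differ between replicate pairs, counts of calls moved with the libraries used, and FPKM without counts gives no model of counting error. Of the settings for called named genes, 940 kept direction and call and 154 kept direction alone, and no called gene reversed. The counts below show only how far the calls moved. Where no share of all genes is given here or above, a count is not a result about long genes.

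The neuroblast median was 0.038 without the level filter and 0.17 after rescaling to TPM, which gave 34 higher. One fit over all groups called 4 long genes (2 higher, 2 lower). At 80000 bases, 19 were called (12 higher). With 1 library left out, the calls ranged from 20 to 37 (12 to 24 higher, 8 to 13 lower, medians 0.047 to 0.10). Same-numbered neuroblast libraries correlated at 0.0673, so they share only a number, and a replicate block gave 36 calls (23 higher, 13 lower).

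In S2 cells, leaving out 1 library gave 22 to 51 calls (13 to 42 higher, 9 to 11 lower, medians 0.21 to 0.47). The replicate block gave 55 calls (42 higher, 13 lower) and the first number as a block 63 (47 higher). Over all genes the replicate block raised the shares as well, to 17.1% higher and 19.4% lower. Replicates 1 and 2 alone gave 89 (62 higher, 27 lower), replicates 3 and 4 alone 19 (16 higher, 3 lower), and a span of 80000 bases 18 (13 higher, 5 lower).

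For the difference between systems, the calls were 11 without the filter (8 lower), 2 at a mean of 5 FPKM (1 higher, 1 lower) and 1 at 80000 bases (0 higher, 1 lower). There was 1 higher after quantile normalisation and 4 lower at 50000 bases. Leaving out 1 library gave 1 to 13 calls (1 to 2 higher, 0 to 11 lower).

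Signs turned for genes that were not called. Under TPM these were the neuroblast changes of *Pde1c* (0.0056), *lola* (0.014), *mub* (0.068), *pros* (0.044), *Hs6st* (0.014) and *scrib* (0.045), and under quantile normalisation *mub* (0.027) and *CG3655* (−0.024). With 1 neuroblast library left out, the ranges that crossed 0 were those of *CG42669* (−0.064 to 0.21), *CG3655* (−0.049 to 0.068), *Hs6st* (−0.22 to 0.066), *app* (−0.00055 to 0.074), *mub* (−0.073 to 0.0099), *Pde1c* (−0.32 to 0.23), *CG40178* (−0.018 to 0.38) and *scrib* (−0.11 to 0.0049). With 1 S2 library left out they were those of *Ten-a* (−0.49 to 0.096), *Parp* (−0.11 to 0.29) and *Mur2B* (−0.23 to 0.10). In 1 replicate pair they were *CG32816* (−0.084, replicates 1 and 2), *SNF4Agamma* (−0.14) and *CG1677* (0.026, replicates 3 and 4). The cause was not tested.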
